A study of Mus musculus with 3 samples.

Results

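The 9 genes described here encode parts of the machinery that shows peptides to T cells. They are the class I heavy chains H2-K1 and H2-D1, the class I light chain B2m, the immunoproteasome subunit Psmb8, the peptide transporter subunit Tap1, the class II chains H2-Aa and H2-Ab1, the invariant chain Cd74 and the class II transactivator Ciita. They were chosen by symbol, and all 9 were found among the 32285 genes of the count tables. Their levels and the shares of barcodes that held them were read apart in barcodes found in 1 library only and in barcodes found in all 3 libraries.

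The data were single-cell RNA-seq counts from organoids of the mouse small intestine, cultures in which epithelial cells grow in a supporting matrix from stem cells. Each of the 3 groups was 1 library, so no difference between groups could be tested and no p-value was computed. WT organoids carried neither floxed allele. LApc organoids came from Lgr5-CreERT2;Apc fl/fl mice (the Cre line is Lgr5-EGFP-IRES-CreERT2 in the study's methods), in which tamoxifen switches on a Cre in Lgr5-expressing stem cells that is meant to remove Apc, a negative regulator of the Wnt pathway. In LApcL mice, Lgr5-CreERT2 and Apc fl/fl were joined by Lef1 fl/fl, so that the same Cre is also meant to remove Lef1, a transcription factor of that pathway. All mice were labelled C57BL/6, were 7 to 8 weeks old and received 2 doses of tamoxifen at 2 mg, the WT mice included, as the labels give it. Per the labels, 29 days passed after tamoxifen for LApc and 21 days for the other groups, so time and genotype cannot be told apart for LApc. The study's methods differ from the labels in that they give WT mice 1 dose, and the days they give for the isolation of crypts do not include the labelled day of LApc. The organoids were taken at passage 3 on day 6 of culture, and how many mice stood behind each library was not given in the sources used here. The study's methods state that the Lef1 fl/fl line came from a mixed background and was backcrossed to C57BL/6.

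Class I molecules sit on nearly all nucleated cells and carry peptides made by the proteasome inside the cell. Interferon exchanges catalytic subunits of the proteasome for immunoproteasome subunits such as Psmb8, and the transporter that holds Tap1 moves the peptides into the endoplasmic reticulum, where a heavy chain and B2m take them up. Class II molecules carry peptides from taken-up material, are held by Cd74 until loading, and depend on Ciita for their transcription. They are best known from B cells, dendritic cells and macrophages, but interferon-gamma can also induce them in epithelial and endothelial cells.

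The libraries held 11411 (WT), 10706 (LApc) and 12068 (LApcL) barcodes, and 3195 barcodes were the same in all 3. Barcodes of 1 library only with at least 10000 unique molecular identifiers (UMIs, each a captured RNA molecule) and at most 20% mitochondrial UMIs are called deep. There were 1208, 2161 and 1931 of them, with medians of 38074, 34377 and 32584 UMIs. Their median mitochondrial shares were 10.5%, 5.64% and 6.39%, so this sign of RNA quality differed along with each comparison with WT, and its part in the results was not tested beyond the limit of 10%. The shared barcodes had medians of 2176, 1483 and 1609 UMIs. The log10 UMI totals of a shared barcode correlated between libraries with r from 0.990 to 0.992 over the 3195 barcodes, so the shared barcodes are not 3 separate samples. The epithelial markers summed to between 4565 and 8043 CPM (counts per 1e+06 UMIs) in the deep barcodes and to between 17.6 and 60.5 CPM in the shared ones. The 5 pan-endothelial markers summed to between 4.79 and 21.5 CPM in the deep barcodes and to between 3924 and 3931 CPM in the shared ones, which goes against the organoid label for the shared barcodes. Where the shared barcodes came from was not tested. Leukocyte markers were scarce: the 4 general ones summed to at most 0.571 CPM in the deep barcodes and 16.1 CPM in the shared barcodes. In the deep barcodes, Lef1 stood at 0.961 CPM in WT, 72.0 CPM in LApc and 47.8 CPM in LApcL. Apc stood at 20.0, 88.5 and 95.4 CPM. Where the counted 3′ ends lie relative to the deleted parts was not given in the sources used here, so these levels check neither deletion.

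On build GRCm38, 6 of the 9 genes lie in the major histocompatibility complex on chromosome 17. H2-K1 (ENSMUSG00000061232) is at chr17:33996017-34000347 on the minus strand, and H2-D1 (ENSMUSG00000073411) at chr17:35262730-35267499 on the plus strand. Tap1 at chr17:34187553-34197225 and Psmb8 at chr17:34197721-34201454 are neighbours on the plus strand. H2-Ab1 at chr17:34257689-34269419 and H2-Aa at chr17:34282744-34287823 lie close by on opposite strands. B2m at chr2:122147686-122153083, Ciita at chr16:10480059-10528418 and Cd74 lie outside the complex.

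Class I promoters are known for a nuclear factor kappa B site, an interferon response element and a downstream module that the class II promoters share. The upstream sequences are shown because the 2 heavy chain genes share most of theirs, while the ratio of their UMIs differed between libraries. They are from RefSeq on GRCm38.p6 and are read in the direction of the gene up to its start, and 6 of the 9 members had an entry. Capitals mark matches on either strand to GGGGATTCC (of the kappa B type), TTTCACTTC (of the interferon response type), TTTCNNTTT (the same type, looser), TGACG (an X2 or cyclic AMP type core) and CCAAT (a Y box core), and in H2-Aa the TGACG matches on both strands overlap.
H2-K1, chr17:34000348-34000597, minus strand: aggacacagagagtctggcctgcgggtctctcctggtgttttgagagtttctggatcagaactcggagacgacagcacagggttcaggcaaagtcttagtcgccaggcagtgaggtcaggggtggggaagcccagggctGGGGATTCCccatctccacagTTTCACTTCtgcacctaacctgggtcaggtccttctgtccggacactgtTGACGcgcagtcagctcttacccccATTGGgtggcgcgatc
B2m, chr2:122147437-122147685, plus strand: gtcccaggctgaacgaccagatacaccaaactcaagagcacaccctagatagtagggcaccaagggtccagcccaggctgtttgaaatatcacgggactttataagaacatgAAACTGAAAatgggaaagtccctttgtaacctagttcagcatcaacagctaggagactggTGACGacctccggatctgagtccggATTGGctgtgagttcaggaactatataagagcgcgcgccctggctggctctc
H2-Aa, chr17:34287824-34288073, minus strand: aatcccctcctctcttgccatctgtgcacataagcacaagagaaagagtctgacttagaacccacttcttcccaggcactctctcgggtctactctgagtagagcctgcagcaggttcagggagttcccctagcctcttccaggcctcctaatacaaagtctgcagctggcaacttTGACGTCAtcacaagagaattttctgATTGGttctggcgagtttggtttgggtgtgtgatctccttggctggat

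For H2-D1 the stretch of 30 bases that holds the first 2 motifs is shown beside that of H2-K1, since a longer transcript of H2-D1 in the GENCODE annotation covers its RefSeq start.
H2-K1, chr17:34000429-34000458, minus strand: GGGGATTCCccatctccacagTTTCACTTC
H2-D1, chr17:35262923-35262952, plus strand: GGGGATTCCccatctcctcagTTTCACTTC

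The 2 stretches differed at 1 of 30 positions, and the 250-base windows of H2-K1 and H2-D1 were identical at 166 of 190 aligned bases (87.4%). GGGGATTCC occurred in 0.213% and TTTCACTTC in 0.402% of 32851 such windows, and both heavy chain genes held both. Class I promoters are known for elements of these types, so these matches are no result. TTTCNNTTT, which B2m held, occurred in 9.37%, TGACG in 17.8% and CCAAT in 33.8%. H2-Aa held TGACG and CCAAT, as did Tap1, and the Psmb8 window, which lies wholly inside the longer GENCODE gene, held no match to the 5 motifs, so the bases before that gene were not searched. A match is a string of letters and not a site shown to be bound. In the last 500 bases of the longest coding transcript, where 3′ counting reads, 2 of 451 windows of 50 bases in H2-K1 also occurred in another gene, which was H2-D1. In H2-D1 it was 43 of 451, held by 80 other genes that included AC132307.5, Adsl and Kcnk4. In the other 7 members it was 0 of 451.

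Class I genes were by far the most abundant members in the deep barcodes, and their balance differed between WT and the Apc-targeted organoids. The level of H2-K1 was 367 CPM for WT, 263 CPM for LApc and 237 CPM for LApcL. Its LApc to WT ratio was 0.717 (95% interval 0.703 to 0.731, an exact interval that, like all intervals here, covers counting error only). H2-D1 went the other way, at 176 CPM for WT, 243 CPM for LApc and 202 CPM for LApcL. Its LApc to WT ratio was 1.38 (1.34 to 1.41) and its LApcL to WT ratio 1.14 (1.11 to 1.17). WT was the highest of the 3 libraries for H2-K1 and the lowest for H2-D1.

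These ratios depend on the scaling to library totals, since the median log2 ratio over all 16216 genes tested was 0.52 for LApc against WT and 0.48 over 15623 genes for LApcL against WT. Relative to that median, the log2 ratio of H2-K1 to WT was -1.11 in LApcL, and that of H2-D1 was -0.05 in LApc and -0.29 in LApcL. With median-of-ratios size factors the H2-D1 log2 ratio of LApcL to WT turned from 0.19 to -0.09. The UMI ratio of H2-K1 to H2-D1 within a library needs no scaling. In the deep barcodes it was 2.08 (2.02 to 2.13) in WT, 1.08 (1.06 to 1.10) in LApc and 1.18 (1.15 to 1.20) in LApcL, so among these sets the 2 heavy chains were close to even only in the Apc-targeted libraries. In the shared barcodes it was 1.26 in WT, 1.25 in LApc and 1.26 in LApcL.

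B2m, the light chain that every class I molecule needs, was lower in the Apc-targeted organoids. Its level was 202 CPM for WT, 92.3 CPM for LApc and 81.8 CPM for LApcL. WT was thus 2.19-fold higher than LApc (2.13 to 2.25) and 2.47-fold higher than LApcL (2.39 to 2.55). Both were under 2-fold, at log2 -0.72 and -0.89, with enterocyte-marked WT barcodes left out, and the enterocyte markers summed to 12799 CPM in WT against 3.14 and 1.64 CPM in LApc and LApcL. The UMI ratio of B2m to H2-K1 within a library was 0.551 in WT, 0.351 in LApc and 0.345 in LApcL, so the light chain was lower also against its main heavy chain.

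Psmb8 and Tap1 were expressed at a low level. Psmb8, which takes the place of the constitutive subunit Psmb5 in the immunoproteasome, stood at 10.7 CPM for WT, 8.19 CPM for LApc and 15.6 CPM for LApcL, and the LApcL to LApc ratio was 1.91 (1.74 to 2.09). Per UMI of Psmb5 there was 0.0589 of a Psmb8 UMI in WT, 0.0286 in LApc and 0.0543 in LApcL, so the constitutive subunit outnumbered its replacement in all 3 libraries. Tap1 stood at 2.86 CPM for WT, 6.41 CPM for LApc and 5.22 CPM for LApcL. Its LApc to WT ratio was 2.24 (1.86 to 2.71), or 0.65 above the median gene on the log2 scale. It was under 2-fold, at log2 0.90 to 0.98, in 5 of the 12 alternatives.

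Class II genes were the least abundant members in WT, where none passed 2.35 CPM, and H2-Aa was near the limit of detection in all 3 libraries. H2-Aa had 6, 5 and 5 UMIs in the WT, LApc and LApcL libraries, which is 0.123, 0.0550 and 0.0621 CPM, so no difference was detectable at this depth. H2-Ab1 had 115, 192 and 466 UMIs, or 2.35, 2.11 and 5.79 CPM. LApcL was above LApc by 2.74-fold (2.31 to 3.26). In all 3 libraries H2-Ab1 was detected largely without its partner chain H2-Aa: the UMI ratio of the 2 was 19.2 in WT, 38.4 in LApc and 93.2 in LApcL, against 1.23 to 1.29 in the shared barcodes.

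Cd74 was the member that differed most between libraries among those with at least 20 UMIs in each. It had 58 UMIs in WT (1.19 CPM), 1909 in LApc (21.0 CPM) and 537 in LApcL (6.67 CPM). LApc was 17.7-fold above WT (13.6 to 23.4), a log2 ratio of 4.15 that ran from 3.33 with CPM + 1 to 5.11 without enterocyte-marked barcodes. The 12 WT barcodes with the most Cd74 held 74.1% of its 58 UMIs. The WT share of barcodes, given below, was not read as expression. In barcodes of 1 library only under 10000 UMIs, Cd74 stood at 4.45 CPM in WT and 7.86 CPM in LApc. Over the mitochondrial limit it stood at 1.46 and 3.85 CPM, so WT and LApc lay closer there. In the deep barcodes LApc was 3.15-fold above LApcL (2.86 to 3.47). Ciita went the other way, with 72 UMIs in WT (1.47 CPM), 2 in LApc and 17 in LApcL (0.211 CPM). The LApc to WT ratio of Ciita was 0.0149 (0.00178 to 0.0560), so the library with the most Cd74 had the fewest UMIs of the class II transactivator.

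**Figure D1:**
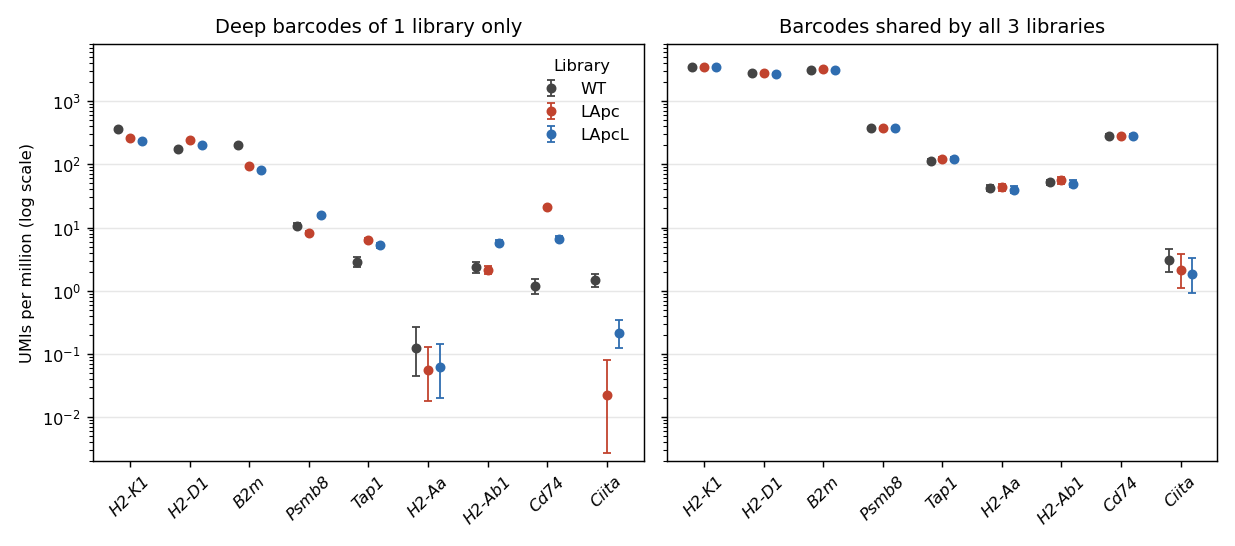
Level of each member in CPM on a log axis, in the deep barcodes of each library (left) and in the barcodes shared by all 3 libraries (right). Points are levels from UMIs summed over barcodes, and bars are exact 95% Poisson intervals, which cover counting error only. In the deep barcodes Cd74 ran from 1.19 in WT to 21.0 in LApc, while in the shared barcodes the points of the 3 libraries lie side by side and those of Ciita have overlapping intervals.

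By count, 2 of the 8 members with at least 20 UMIs over both libraries were at least 2-fold higher in LApc than in WT (Cd74 and Tap1), against 31.0% of all genes. The 2 that were at least 2-fold lower (B2m and Ciita) compare with 14.1% of all genes, and B2m left this count, here and against LApcL, without the enterocyte-marked barcodes that only WT held. Between LApcL and LApc, 1 of 7 members was at least 2-fold higher (H2-Ab1) and 1 at least 2-fold lower (Cd74), against 4.05% and 10.4% of all genes. Between LApcL and WT, 2 of 8 were at least 2-fold higher (Cd74 and H2-Ab1) and 2 lower (B2m and Ciita), against 30.4% and 16.0%. The shares of members were within a few genes of the background in each comparison, so the counts are no result about the members as a group. The median log2 ratio of the members was -0.27, -0.17 and 0.37 in the 3 comparisons, against 0.52, 0.01 and 0.48 for all genes tested.

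**Figure D2:**
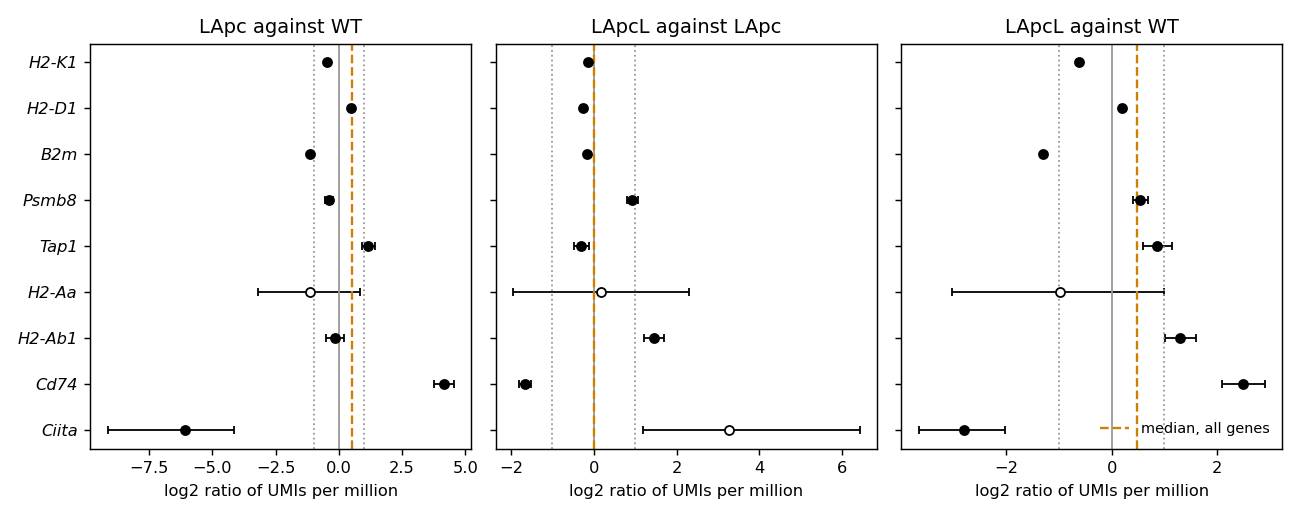
Log2 ratio of CPM for each member between pairs of libraries, deep barcodes only. Points are log2 ratios with exact 95% conditional binomial intervals for counting error, open points had under 20 UMIs over both libraries, dotted lines mark 2-fold and the dashed line is the median of all genes tested. B2m lies below and Cd74 above the 2-fold lines in both comparisons with WT, and the x axes differ in range.

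Detection per barcode at equal depth gave the same picture. Each deep barcode was thinned to 10000 UMIs before the share of barcodes with a UMI was read. H2-K1 was detected in 94.9% of WT barcodes (exact 95% interval 93.5 to 96.0), 86.0% of LApc barcodes (84.4 to 87.4) and 86.7% of LApcL barcodes (85.1 to 88.2). B2m was detected in 82.3% (80.0 to 84.4), 55.7% (53.5 to 57.8) and 51.5% (49.3 to 53.8). H2-D1 stayed within a narrower range, at 78.2%, 82.6% and 81.4%. The medians per barcode at this depth were 3, 2 and 2 UMIs for H2-K1, 1, 2 and 2 for H2-D1 and 2, 1 and 1 for B2m. Without thinning the shares were 99.6%, 97.7% and 98.1% for H2-K1 and 97.6%, 87.3% and 83.1% for B2m.

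Psmb8 was detected in 9.35%, 7.36% and 14.5% of WT, LApc and LApcL barcodes at 10000 UMIs, and Tap1 in 2.81%, 6.34% and 4.71%. Cd74 was detected in 0.828% (0.398 to 1.52), 8.70% (7.54 to 9.97) and 4.92%, and without thinning in 2.24%, 17.2% and 13.9%. H2-Ab1 was detected in 2.40%, 2.04% and 4.30%. The same share was read for 5 genes that epithelial cells should lack, and these did not give one background level. Pecam1, an endothelial adhesion molecule, was detected in 0.911%, 1.71% and 0.777% of the barcodes, and Cdh5, the endothelial cadherin, in 0.0828%, 3.61% and 0.155%. Kdr, an endothelial receptor, was detected in 0.0828%, 0.0463% and 0.207%, Ptprc, the pan-leukocyte marker CD45, in 0%, 0.0463% and 0.0518%, and Emcn in none. The Cd74 shares of LApc and LApcL and the H2-Ab1 shares of WT and LApcL lay above all 5 genes. The Cd74 share of WT lay below Pecam1 and above the other 4, the H2-Ab1 share of LApc lay below Cdh5 and above the other 4, and neither was read as expression. H2-Aa was detected in 2, 1 and 3 barcodes and Ciita in 18, 0 and 5. The Ciita share of WT, 1.49%, lay above all 5 genes, but its interval (0.885 to 2.34) held the Pecam1 share. For Ciita in LApc, 0 of 2161 thinned barcodes allows a share of barcodes with a UMI of up to 0.139% by the limit of 3 counts, and of up to 0.171% by the exact interval. Before thinning, 2 LApc barcodes held Ciita.

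**Figure D3:**
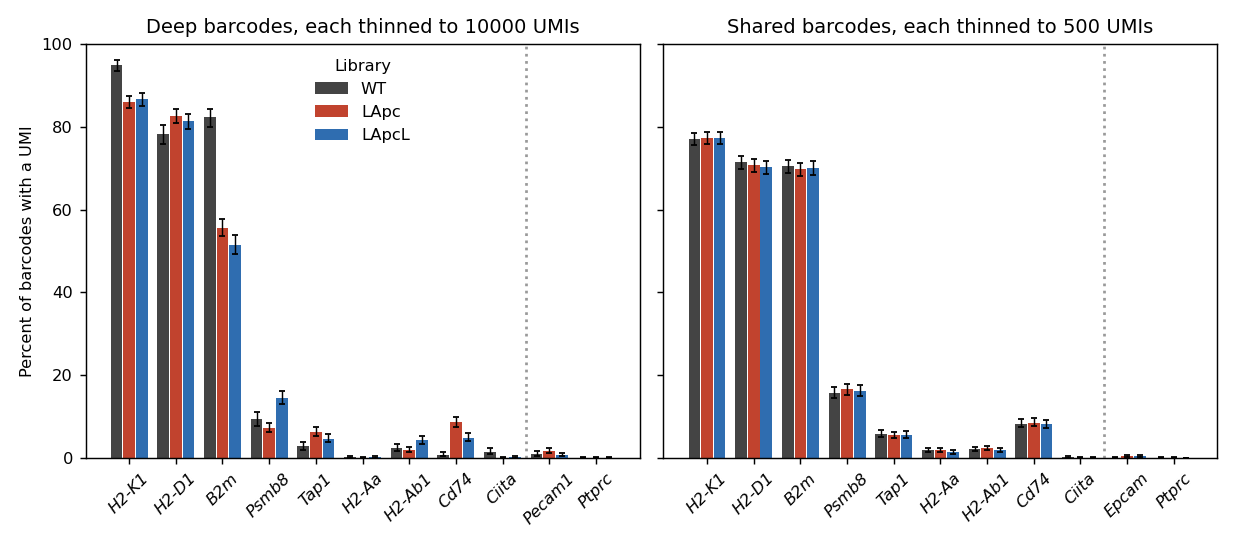
Percent of barcodes with at least 1 UMI of each member, in deep barcodes thinned to 10000 UMIs each (left) and in shared barcodes thinned to 500 UMIs each (right). Bars are shares with exact 95% binomial intervals, and the genes to the right of the dotted line are ones that the barcodes on that side should lack. B2m was at 82.3% in WT and at 55.7% and 51.5% in LApc and LApcL on the left, and the libraries overlap on the right, where the depth is lower and the 2 panels cannot be compared in height.

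Class II UMIs were held by few barcodes. The 12 WT barcodes with the most Cd74 UMIs, 1% of the deep set, held 74.1% of all Cd74 UMIs, and the top 1% held 31.3% in LApc and 30.2% in LApcL. For H2-K1 the top 1% held between 4.19% and 5.45%. Such a share rises where UMIs are few. WT held 58 UMIs of Cd74 and 17927 of H2-K1, so these shares cannot be compared between the genes. Of the 372 LApc barcodes with a Cd74 UMI before thinning, 46 also held H2-Ab1 (12.4%, against 5.20% of barcodes without Cd74), 1 held H2-Aa and 0 held Ciita. Their median depth was 38340 UMIs against 33549 in barcodes without Cd74. One of the 372 held a UMI of Ptprc and 37 held a UMI of any of 10 leukocyte and B cell markers (9.95%, against 6.71%). The shares with H2-Ab1 and with these markers were thus higher in barcodes with a Cd74 UMI, which were also deeper, and at these low levels a count of 0 in a barcode does not show that a gene is absent.

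In WT the class I genes were higher in enterocyte-marked barcodes. Enterocytes are the absorptive cells that organoids form as they mature, and 529 of the 1208 deep WT barcodes had at least 0.5% of their UMIs from 8 enterocyte genes. No LApc or LApcL barcode reached that share, and 270 WT barcodes lay between 0.25% and 1%, so the class is a range. B2m had 281 CPM in these barcodes and 162 CPM in the others, a ratio of 1.74 (1.61 to 1.88). H2-K1 had 436 against 334 CPM, with an interval of the ratio from 1.23 to 1.38, and H2-D1 had 206 against 161 CPM, a ratio of 1.28 (1.18 to 1.39). Psmb8 had 8.70 against 12.2 CPM, with an interval of the ratio from 0.485 to 1.03. With the enterocyte-marked barcodes left out of WT, the log2 ratio of LApc to WT was -0.72 for B2m, -0.28 for H2-K1 and 0.65 for H2-D1, so B2m no longer passed 2-fold.

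Barcodes of dividing cells were read by a UMI of Mki67, the Ki-67 gene, at 10000 UMIs. B2m was lower in them in each library: 149 against 233 CPM in WT, 84.9 against 95.5 CPM in LApc and 68.0 against 92.4 CPM in LApcL. The ratios were 0.638 (0.573 to 0.709), 0.888 (upper bound 0.986) and 0.736 (0.663 to 0.816). H2-D1 was lower in WT, at 142 against 192 CPM, while in LApc and LApcL its ratios were 0.939 and 1.02, each with an interval that held 1. Barcodes with an Lgr5 UMI, a stem cell mark, were 116, 482 and 1009 in number. In WT they had less of all 3 class I genes, with ratios of 0.763 for H2-K1, 0.681 for H2-D1 and 0.785 for B2m. In LApc and LApcL the ratios for these 3 genes ran from 0.978 to 1.10. The WT barcodes without an Lgr5 or Mki67 UMI included enterocyte-marked ones, which LApc and LApcL did not hold. Their part in these ratios was not tested. WT barcodes under the enterocyte cut had 334, 161 and 162 CPM of H2-K1, H2-D1 and B2m. WT barcodes with an Lgr5 UMI had 296, 127 and 172 CPM.

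In LApc, Cd74 was lower in dividing barcodes and higher in Npy-positive ones. It had 11.0 CPM in the 555 barcodes with an Mki67 UMI and 26.7 CPM in the 1606 without, a ratio of 0.411 (0.309 to 0.539). In the 298 LApc barcodes with a UMI at 10000 UMIs of Npy, which encodes neuropeptide Y, Cd74 had 48.0 CPM against 18.6 CPM in the other 1863, a ratio of 2.58 (2.11 to 3.14). H2-D1 was also higher there, at 305 against 227 CPM, as was H2-K1, at 304 against 256 CPM (ratio 1.18, 1.10 to 1.27), while B2m had 85.2 against 94.0 CPM with an interval of the ratio from 0.792 to 1.03. The Npy split was chosen after its values were seen. Over the 2161 LApc barcodes at 10000 UMIs, the genes with the highest correlation with Cd74 were Fn1 (r = 0.36), Ltb (0.35) and Ly6d (0.32), given as a description over cells of 1 library.

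**Figure D4:**
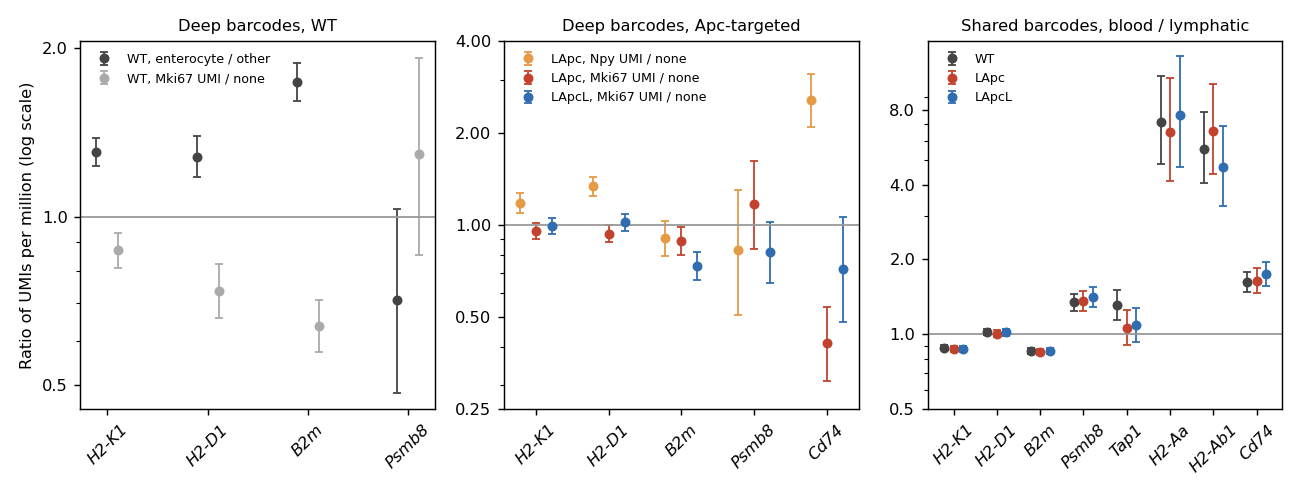
Ratio of CPM between classes of barcodes within a library, on log axes: enterocyte-marked or Mki67-positive against other deep barcodes in WT (left), Npy-positive (LApc) or Mki67-positive (LApc and LApcL) against other deep barcodes (middle), and blood against lymphatic endothelial-marked shared barcodes (right). Points are ratios and bars exact 95% conditional binomial intervals for counting error. B2m lies at 1.74 for enterocyte-marked WT barcodes, Cd74 at 2.58 for Npy-positive LApc barcodes, and the class II chains between 4.69 and 7.62 for blood-marked shared barcodes.

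In the shared barcodes the members other than Ciita were at least 8.58-fold higher than in the deep barcodes, and the libraries hardly differed. H2-K1 had 3478, 3466 and 3413 CPM in WT, LApc and LApcL, H2-D1 had 2768, 2775 and 2716 CPM, and B2m had 3100, 3188 and 3059 CPM. Psmb8 had 371, 369 and 373 CPM and Tap1 115, 120 and 120 CPM. H2-Aa had 42.1, 43.2 and 39.5 CPM, H2-Ab1 51.9, 55.6 and 49.7 CPM, and Cd74 285, 282 and 284 CPM. Ciita had 25, 12 and 11 UMIs, or 3.05, 2.16 and 1.83 CPM. Of the 9 members, 0 differed 2-fold between any pair of libraries, where 0.882% of all genes did for LApc against WT, 0.682% for LApcL against LApc and 0.886% for LApcL against WT. The UMI counts of H2-K1 and Cd74 in a barcode correlated between libraries with r of 0.837 to 0.866 and 0.846 to 0.879 over the 3195 barcodes, which share their depth. For members with fewer UMIs r was lower, at 0.482 to 0.566 for Psmb8, 0.341 to 0.423 for Tap1 and 0.220 to 0.425 for Ciita.

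Against the deep barcodes of the same library, all 9 members were at least 2-fold higher in the shared barcodes in WT and LApcL, where 33.1% and 25.6% of all genes were. In LApc it was 8 of the 8 that could be compared, against 24.6% of all genes. None was 2-fold lower, where 23.6%, 26.6% and 27.3% of all genes were in WT, LApc and LApcL. Ciita entered the counts of WT and LApcL with 25 and 11 shared UMIs, and its share of shared barcodes was not read as expression. The medians of the members' log2 ratios were 4.46, 4.47 and 4.52, against 0.23, -0.17 and -0.17 for all genes. With shared barcodes that had a UMI of any leukocyte or B cell marker left out, an alternative chosen after seeing the data, the count in WT was 8, since the log2 ratio of Ciita was then 0.87. It was also 8, with Ciita at 0.71 to 0.99, with CPM + 1, without the 50 most abundant genes, and without shared barcodes that held a UMI of Ptprc or of Epcam.

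H2-K1 was 9.49-fold (9.31 to 9.66), 13.2-fold and 14.4-fold higher in shared than in deep barcodes for WT, LApc and LApcL, and B2m 15.3-fold, 34.5-fold and 37.4-fold. Psmb8 was 34.6-fold higher in WT, 41.4-fold to 49.0-fold (the interval) in LApc and 23.8-fold in LApcL, and its UMI ratio to Psmb5 was between 3.19 and 3.20 in the shared barcodes, so there the immunoproteasome subunit outnumbered its counterpart. Cd74 was 240-fold (185 to 317) higher in WT but 13.4-fold (12.5 to 14.3) in LApc and 42.5-fold (38.6 to 47.0) in LApcL. The WT ratio rests on 58 deep UMIs of Cd74, whose share of deep WT barcodes was not read as expression. H2-Aa rests on 5 or 6 deep UMIs per library, and its ratios of 343, 785 and 637 have intervals from 156 to 2439. Ciita was 2.07-fold (1.26 to 3.31) higher in WT and 8.65-fold (3.66 to 19.6) in LApcL, though its share of shared barcodes was not read as expression. The direction was the same under each of the 12 alternatives run for each member that could be compared, which changed the limits on barcodes, the scaling or the shared barcodes kept.

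Thinned to 500 UMIs, a shared barcode held H2-K1 in 77.1% to 77.4% of cases over the 3 libraries, B2m in 69.7% to 70.5%, Psmb8 in 15.8% to 16.6%, Cd74 in 8.20% to 8.58% and H2-Aa in 1.38% to 1.91%. Without thinning Cd74 was found in 21.5%, 18.4% and 18.9%. The epithelial genes Epcam, Krt8 and Vil1, which these barcodes should lack, were detected in 0.0313% to 0.563% at 500 UMIs, and the Cd74 and H2-Aa shares lay above all 3. Ciita, in 0.0939% to 0.188%, lay within or below the range of these epithelial genes in each library and was not read as expression.

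The class II chains were higher in blood than in lymphatic endothelial-marked shared barcodes. By markers summed over the libraries, 2096 barcodes were placed as blood endothelial-like and 1036 as lymphatic endothelial-like, and 63 were placed as neither. H2-Aa had 63.8, 64.2 and 60.0 CPM in the blood-marked barcodes of WT, LApc and LApcL and 8.97, 9.90 and 7.87 CPM in the lymphatic-marked ones. The ratios were 7.12 (4.83 to 10.9), 6.49 (4.14 to 10.7) and 7.62 (4.71 to 13.1). The 31 barcodes with the most H2-Aa UMIs held 37.7%, 42.1% and 39.5% of them. H2-Ab1 followed with ratios of 5.57, 6.56 and 4.69, and Cd74 with 1.62, 1.65 and 1.75. Ciita had 19 against 6, 8 against 4 and 11 against 0 UMIs, and its intervals in WT (0.764 to 6.09) and LApc (0.336 to 5.70) held 1. Psmb8 was higher in blood-marked barcodes by 1.34-fold to 1.41-fold. H2-K1 and B2m were lower in them, with ratios of 0.872 to 0.883 and 0.851 to 0.857, and H2-D1 had ratios of 1.01 to 1.03 with each interval across 1.

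A UMI of H2-Aa, H2-Ab1 or H2-Eb1 was found in 566 of the 3195 shared barcodes over the 3 libraries, in 461 of the blood-marked and 99 of the lymphatic-marked barcodes (9.56% of the latter), so most barcodes of either kind held none. B cells, dendritic cells and macrophages also carry these genes. A UMI of any of 6 B cell markers was found in 4.95% of barcodes with such a chain and in 2.02% of those without, and 7 of the 3195 held Ptprc. The B cell markers summed to between 13.1 and 13.7 CPM, and 7 myeloid and dendritic markers, of which 2 or 3 were at 0, to between 6.12 and 7.57 CPM. The part of leukocytes in the class II levels was not tested beyond leaving out the 195 barcodes with any B cell or general leukocyte marker, which moved the log2 ratio of H2-Aa, shared against deep, from 8.42 to 8.24 in WT.

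The counts for the other genes of the pathway stand beside the shares over all genes given above, 31.0% higher and 14.1% lower for LApc against WT and 30.4% and 16.0% for LApcL against WT. Of the class I heavy chains outside the members, 0 of 11 were at least 2-fold higher and 4 lower in LApc against WT, with a median log2 ratio of 0.15. H2-T3, the ligand of the CD8 alpha homodimer on intestinal lymphocytes, stood at 20.9 CPM for WT, 0.0770 CPM for LApc and 0.0124 CPM (1 UMI) in LApcL, and the WT to LApc ratio was 271 (131 to 677). H2-Q10 had 107, 31.1 and 20.8 CPM, while H2-T23, which encodes Qa-1, had 34.0, 50.5 and 38.4 CPM. The enterocyte markers, at 12799 CPM in WT against 3.14 and 1.64 CPM in LApc and LApcL, were also higher in WT. Their part in the lower heavy chains was not tested. Heavy chain genes resemble each other in sequence, and how far this affected the assignment of their reads was not tested.

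Of the other peptide-loading genes, 0 of 7 were past 2-fold either way in LApc against WT, with a median log2 ratio of 0.29, and in LApcL against WT 1 of 7 was higher (Pdia3) and 0 lower. Pdia3, a disulfide isomerase of the loading complex, had 181, 349 and 381 CPM in WT, LApc and LApcL. Calr, which encodes the chaperone calreticulin, had 329, 403 and 470 CPM, and Tapbp, which encodes tapasin, 24.1, 46.8 and 47.0 CPM. The immunoproteasome genes beside Psmb8 and the activator genes had a median log2 ratio of 0.83 in LApc and 1.12 in LApcL against WT. Of these 4 genes, 0 were at least 2-fold higher in LApc and 3 in LApcL, where 30.4% of all genes were. Psme1, a subunit of the proteasome activator, had 90.4, 179 and 202 CPM, its partner Psme2 had 72.9, 129 and 159 CPM, and Psmb9 3.58, 6.44 and 7.79 CPM. The LApcL to WT ratios of these 3 were 2.24, 2.18 and 2.18, near the 2-fold limit. The median log2 ratio of this comparison moved by -0.28 with median-of-ratios size factors and by -0.18 without the 50 most abundant genes. The count of 3 thus depends on the scaling. The constitutive subunits Psmb5 (182, 286 and 288 CPM), Psmb6 (180, 228 and 276 CPM) and Psmb7 (80.3, 128 and 127 CPM) had a median log2 ratio of 0.65 in LApc against WT, with 0 of 3 past 2-fold.

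Of the class II chain and loading genes outside the members, 5 of 9 had enough UMIs to compare LApc with WT. At least 2-fold lower were 3 and higher was 1, against 14.1% and 31.0% of all genes, with a median log2 ratio of -2.89. The enterocyte markers, at 12799 CPM in WT against 3.14 and 1.64 CPM in LApc and LApcL, also differed in this direction, and their part in the result was not tested. The higher gene was H2-DMb1, a chain of the peptide exchanger, with 154 UMIs in LApc and 11 in WT (ratio 7.53, 4.09 to 15.4), named after its values were seen. Ifi30, a lysosomal thiol reductase, stood at 345 CPM for WT, 29.5 CPM for LApc and 38.9 CPM for LApcL, and the WT to LApc ratio was 11.7 (11.2 to 12.2). Ctss, a protease that cuts the invariant chain, had 11.8, 1.60 and 2.40 CPM, and H2-DMa, the partner of H2-DMb1, 11.4, 1.49 and 2.22 CPM. Cd74 thus differed in the opposite direction from these 3 genes.

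Of the regulators other than Ciita, 4 of 9 were at least 2-fold higher and 0 lower in LApc against WT, against 31.0% and 14.1% of all genes, so this count is near the background. Irf1, an interferon-induced transcription factor, had 9.04, 38.3 and 42.8 CPM in WT, LApc and LApcL. Nfyb, a subunit of the factor that binds CCAAT, had 26.3, 55.2 and 49.1 CPM, and Creb1, the cyclic AMP response factor, had 25.9, 42.7 and 51.9 CPM. Of 6 interferon receptor genes 0 were 2-fold higher and 2 lower, against 31.0% and 14.1% of all genes. Ifngr1, a chain of the interferon-gamma receptor, had 241 CPM in WT and 61.4 CPM in LApc, while its partner chain Ifngr2 had 133, 130 and 128 CPM (LApc to WT ratio 0.977, 0.948 to 1.01). Ifnlr1, of the interferon-lambda receptor, had 8.36, 3.99 and 5.34 CPM. Enterocyte markers were likewise higher in WT than in LApc and LApcL, and their part in the levels of Ifngr1 and Ifnlr1 was not tested. Of 19 interferon-induced genes 6 were 2-fold higher and 3 lower, with a median log2 ratio of 0.48 against 0.52 for all genes. The most abundant by CPM summed over the 3 deep sets were Bst2, at 36.0, 50.1 and 52.8 CPM (LApc to WT ratio 1.39, 1.32 to 1.47), and Cxcl10, at 12.5, 12.3 and 8.37 CPM (ratio 0.991, 0.897 to 1.10). Those with the largest ratios were Ifit2, at 0.184, 3.99 and 7.66 CPM, and Irgm2, at 0.491, 7.82 and 1.20 CPM. In the shared barcodes all 20 interferon-induced genes were at least 2-fold above the deep barcodes in each library, where 33.1%, 24.6% and 25.6% of all genes were, with median log2 ratios of 5.25, 4.30 and 4.94. Among the costimulatory and inhibitory ligands, 2 of 4 were higher and 1 lower, and Cd1d1, which presents lipids, had 0.450, 9.60 and 16.8 CPM. Cd274, which encodes PD-L1, had 0.368, 1.19 and 1.17 CPM, and Icosl, the ligand of ICOS, had 4.97, 3.25 and 4.40 CPM. Between LApcL and LApc, 0 genes of the lists outside the members were 2-fold higher, where 4.05% of all genes were. The lower ones were 1 of 10 heavy chains and 3 of 19 interferon-induced genes, against 10.4% of all genes.

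Over 9 sets of barcodes (deep, blood-marked shared and lymphatic-marked shared barcodes of the 3 libraries), the patterns most like H2-K1 among 5289 genes were those of Spag9, Prcp, B2m, Calcrl and Plxna2, with r from 0.997 to 0.999 of log2(CPM + 1). Those most like Psmb8 were H2-Q4, Parp14, Adamts1, Rgs3 and Sema6b (r from 0.998 to 0.999). Those most like Cd74 were Malat1, Rbbp6, Eva1b, Smarca2 and Plekho1 (r from 0.995 to 0.997). H2-Aa and H2-Ab1 ranked 969 and 1266 for Cd74, with r of 0.89 and 0.83. The 9 sets come from 3 libraries and 6 of them from the same barcodes, so these are descriptions.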

How the data were processed

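Droplet-based 3′ single-cell libraries of 3 organoid cultures were used, with 1 library per group. The authors deposited whole-number counts of UMIs per gene and barcode, not normalised. Per the file headers they were made with cellranger 6.0.1, while the submitters' processing notes name Cell Ranger 2.1.1 and the builds mm10 and GRCm38. Barcodes over 20% mitochondrial UMIs or under 10000 UMIs were left out of the deep sets, and the 3195 shared barcodes were kept whole. Doublets were left in, and Scrublet scores (scanpy 1.11.5) served as an alternative. Levels are UMIs summed over barcodes per 1e+06 (CPM). Ratios have exact conditional binomial intervals, levels exact Poisson intervals and shares exact Clopper-Pearson intervals, all at 95% and for counting error only. The interval step was tested on simulated counts. A gene entered a count of 2-fold differences with at least 20 UMIs over both sets, and a count of 0 was set at 3. Thinning drew UMIs without replacement (numpy 2.4.6, seed 1). All 9 members were named. Of each other list, 2 genes were named by level and 2 by ratio, and the genes most like H2-K1, Psmb8 and Cd74 by correlation. Members and lists were chosen with earlier results of these data known. The Npy split and the removal of shared barcodes with leukocyte or B cell markers were added after seeing the data. Upstream sequences are RefSeq's and gene positions GENCODE's. One gene that the rule for naming list genes covers is not reported here.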

Additional observations from a re-analysis of the deposited data

Results flagged for a closer look

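Members were also counted in barcodes that no comparison used. In barcodes of exactly 2 libraries, more than 3 UMIs were found for 5 of the 9 members in WT, 7 in the LApc and 6 in the LApcL library. In barcodes of 1 library only under 10000 UMIs, this held for 9 members in WT and 7 in each of the others. In barcodes of 1 library only over the mitochondrial limit, it held for 8 members in WT and LApcL and 7 in LApc. The order of the libraries was as in the deep barcodes for B2m, at 205, 46.7 and 43.4 CPM in the shallow barcodes of WT, LApc and LApcL. H2-K1 stood at 722, 315 and 292 CPM there. Cd74 stood at 4.45, 7.86 and 4.62 CPM.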

How the results depend on the processing

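Of 142 recounts of the members past 2-fold, 134 stayed within 1.5 times the count reported. For LApc against WT, the members at least 2-fold higher went from 2 to 1 (Tap1 lost) with at most 10% mitochondrial UMIs, with median-of-ratios size factors, without the 50 most abundant genes, with CPM + 1, and without enterocyte-marked barcodes. Leaving out enterocyte-marked barcodes also took the members at least 2-fold lower from 2 to 1 in both comparisons with WT (B2m lost). For LApcL against LApc the members at least 2-fold higher went from 1 to 2 (Psmb8 gained) without the highest Scrublet scores. Of 580 refits of single log2 ratios, 467 stayed inside the counting interval and 0 of the called ones changed sign. Of the ratios under 2-fold, H2-D1 in LApcL against WT changed sign with median-of-ratios size factors (-0.09), and H2-Ab1 in LApc against WT changed sign without enterocyte-marked barcodes (0.27). The cause of these changes was not tested. Of 108 shares at another depth or without thinning, 96 moved outside the interval, since a barcode with more UMIs is more likely to hold a given gene. No paired analysis was possible because each group had 1 library. Leaving out a replicate was not possible for the same reason. Depth limits the class II genes: H2-Aa rests on 5 or 6 UMIs per deep set and Ciita on 2 in LApc.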
